A study of Mus musculus with 17 samples.

Results

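The genes described here encode proteins of the extracellular matrix: every collagen chain, laminin chain, fibulin, fibrillin and nidogen whose symbol stands in the gene count table, and 9 further genes taken by name, Fn1, Vcan, Sparc, Dcn, Lum, Bgn, Tgfbi, Postn and Thbs1. They were chosen by symbol alone and number 67 of the 22859 genes in the table, 40 of them collagen chains. They were followed by bulk RNA-seq of macrophages from the knee synovium, the membrane that lines the joint, of mice that all lack Fcgr2b (labelled Fcgr2b-KO), which encodes the inhibitory receptor for immunoglobulin G. The study's methods name adult mice of both sexes and a type I collagenase for the digestion of the tissue before sorting. Immune complexes (IC), ovalbumin bound by rabbit antibody, had been given into the tail vein 8 h before collection, and controls (labelled Healthy) had not received IC. Each treatment comprised 3 sorted subsets: LYVE1+CX3CR1+ macrophages (labelled Lyve1, written LYVE1+ from here on), CD11c-MHCII+ macrophages (labelled IAIE) and CD11c+MHCII+ macrophages (labelled CD11c). There were 17 libraries, 3 in each of the 6 groups except CD11c+MHCII+ macrophages after IC, with 2. No label says that the libraries of a group came from separate mice or how many mice were behind one, so p-values measure the spread between these libraries only.

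The extracellular matrix is the mesh of proteins and proteoglycans that holds cells in a tissue. Fibrillar collagens form its cables, type IV collagen, laminins and nidogens form the basement membrane sheets under endothelium and other cell layers, and fibronectin, thrombospondin and SPARC are adhesive or matricellular proteins that link cells to the mesh or tune that contact. Fibroblasts and vessel wall cells make most collagen, whereas macrophages are known as a source of fibronectin, TGFBI and thrombospondin-1 and take up and degrade collagen.

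Library totals ran from 2301913 to 7248939 counts. The gates were visible in the counts: H2-Ab1, which encodes an MHC class II chain, lay between 9.76 and 36.8 CPM (read counts relative to library size, with sizes scaled by the TMM method) in the 6 LYVE1+ libraries and between 2654 and 9804 in the 11 MHCII+ libraries, and Itgax, which encodes CD11c, lay between 275 and 443 in CD11c+MHCII+ libraries and at 16.1 or less in all others. Lyve1 itself overlapped, at 1727 to 4116 CPM in LYVE1+ and 695 to 2458 CPM in CD11c-MHCII+ libraries. Fcgr2b, the deleted gene, still held 69.3 to 248 CPM in every library, and the table does not say which exons those reads cover. Some libraries stood apart within their groups. CD11c-MHCII+ control library 2, CD11c-MHCII+ IC library 1 and CD11c+MHCII+ control library 2 held 306, 541 and 81.2 CPM of Vsig4, a complement receptor gene of the LYVE1+ libraries (1118 to 2016 CPM), against 29.01 and 22.4, 144 and 28.3, and 1.06 and 0 CPM in the other libraries of the same groups. CD11c+MHCII+ control library 1 held the most Col3a1, Col1a2 and Pdgfra, the last a fibroblast receptor gene. The first 3 are the libraries with the most Vsig4 of each MHCII+ group of 3. They are not the 3 with the most among all MHCII+ libraries, since CD11c-MHCII+ IC library 2 and CD11c+MHCII+ IC library 1 (99.9 CPM) held more than CD11c+MHCII+ control library 2.

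Type IV collagen is a trimer that usually holds chains of Col4a1 and Col4a2, a pair of genes that lie head to head and start 21 bases apart on mouse chromosome 8. Both windows are shown because these chains were the basement membrane collagens with the highest levels in CD11c+MHCII+ macrophages, and capitals mark the 78 bases that the windows have in common, read from opposite strands. The windows cover 250 bases before and 50 bases after the RefSeq gene start on GRCm38.p6 (the mm10 build), chr8:11312777-11313076 on the minus strand and chr8:11312555-11312854 on the plus strand.
Col4a1: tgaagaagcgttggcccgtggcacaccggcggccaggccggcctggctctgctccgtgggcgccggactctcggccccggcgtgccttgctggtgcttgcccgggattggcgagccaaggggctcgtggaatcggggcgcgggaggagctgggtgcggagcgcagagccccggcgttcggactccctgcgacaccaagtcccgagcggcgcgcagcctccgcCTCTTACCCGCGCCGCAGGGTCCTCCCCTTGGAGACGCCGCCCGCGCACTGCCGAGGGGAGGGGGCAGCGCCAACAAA
Col4a2: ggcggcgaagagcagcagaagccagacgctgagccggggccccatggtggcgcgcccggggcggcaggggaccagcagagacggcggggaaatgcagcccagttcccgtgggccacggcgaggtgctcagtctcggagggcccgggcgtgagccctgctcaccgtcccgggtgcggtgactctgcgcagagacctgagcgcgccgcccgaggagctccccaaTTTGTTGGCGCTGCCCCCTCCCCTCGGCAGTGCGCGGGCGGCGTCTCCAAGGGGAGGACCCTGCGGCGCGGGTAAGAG
GC content was 74.0% and 73.7%, and neither window held TATAAA, the letters of a TATA box, on either strand.

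Windows of the same length are shown for Tgfbi (chr13:56609336-56609635, plus strand), Vcan (chr13:89742463-89742762, minus strand) and Sparc (chr11:55420031-55420330, minus strand), because these members were higher in LYVE1+ than in CD11c+MHCII+ control macrophages. Capitals mark GC boxes, searched as GGGCGG on both strands.
Tgfbi: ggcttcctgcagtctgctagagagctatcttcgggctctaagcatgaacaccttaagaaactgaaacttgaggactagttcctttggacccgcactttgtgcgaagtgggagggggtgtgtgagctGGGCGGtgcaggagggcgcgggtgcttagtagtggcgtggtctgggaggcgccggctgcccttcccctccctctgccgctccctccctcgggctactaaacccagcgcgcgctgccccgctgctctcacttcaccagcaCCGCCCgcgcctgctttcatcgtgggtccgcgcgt
Vcan: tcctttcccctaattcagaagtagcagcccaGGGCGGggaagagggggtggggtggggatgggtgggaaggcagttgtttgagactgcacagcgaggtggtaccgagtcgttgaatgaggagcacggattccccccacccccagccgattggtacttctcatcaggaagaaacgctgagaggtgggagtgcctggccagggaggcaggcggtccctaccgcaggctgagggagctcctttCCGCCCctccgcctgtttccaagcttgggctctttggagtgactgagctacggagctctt
Sparc: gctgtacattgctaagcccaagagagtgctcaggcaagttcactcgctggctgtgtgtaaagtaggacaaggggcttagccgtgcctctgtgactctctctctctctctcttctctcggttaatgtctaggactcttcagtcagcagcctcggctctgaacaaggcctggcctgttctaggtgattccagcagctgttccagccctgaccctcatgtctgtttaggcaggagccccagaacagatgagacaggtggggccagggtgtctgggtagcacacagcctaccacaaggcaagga
The Tgfbi and Vcan windows held 2 GC boxes each, and the Sparc window held 0. A GC box was found in 35.7% of all 32851 RefSeq windows of this length, and in 33 of the 55 windows that belonged to 48 of the 67 members. CCAAT, searched on both strands, was in 37.4% of all windows and in 18 member windows, and TATAAA in 13.6% and in 5.

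Fibronectin and TGFBI dominated the matrix transcripts of all 3 subsets. In GENCODE models on GRCm38 their genes lie at chr1:71585520-71653200 on the minus strand (Fn1) and chr13:56609523-56639562 on the plus strand (Tgfbi). Counts of all members together made up 0.271% to 1.39% of a library, and Fn1 and Tgfbi alone were 81.4% to 96.9% of these member counts. Per kilobase of exons, which allows levels of different genes to be compared, Tgfbi led in LYVE1+ control macrophages at 645 ± 67.5 CPM per kb (SD, n = 3), before Fn1 at 378 ± 75.8, Sparc at 80.9 ± 10.99, Vcan at 38.03 ± 8.46 and Nid2 at 18.01 ± 3.58. In CD11c+MHCII+ control macrophages the order was Fn1 at 870.5 ± 195 CPM per kb, Tgfbi at 257 ± 44.9, Thbs1 at 24.3 ± 4.62, Sparc at 6.55 ± 6.14 and Col4a2 at 6.18 ± 2.71. The Sparc and Col4a2 levels in that order did not differ beyond their spread. CD11c-MHCII+ control macrophages had Tgfbi at 464 ± 72.2, Fn1 at 327 ± 433, Sparc at 21.04 ± 23.4, Thbs1 at 13.3 ± 6.98 and Nid2 at 12.3 ± 1.84 CPM per kb, and there the Fn1 and Sparc spreads reached past their means. Divided by the longest transcript in place of all exons, 12 of the 30 levels of these top 5 members moved by more than 1 SD (Sparc in LYVE1+ controls to 133 CPM per kb), and the order of the 5 did not change in any group. Lamc1 was among the top 5 in CD11c+MHCII+ macrophages after IC, at 4.34 ± 2.001 CPM per kb (SD, n = 2). Most collagens were low: 51 of the 67 members stayed under 20 CPM in every group mean, 11 reached 20 to 100 CPM, 3 (Vcan, Sparc and Thbs1) reached 100 to 1000, and 2 (Fn1 and Tgfbi) exceeded 1000. A filter on low counts kept 48 members, and the 19 others, among them Lum, held at most 71 counts over all libraries and at most 8.08 CPM in any library.

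**Figure D1:**
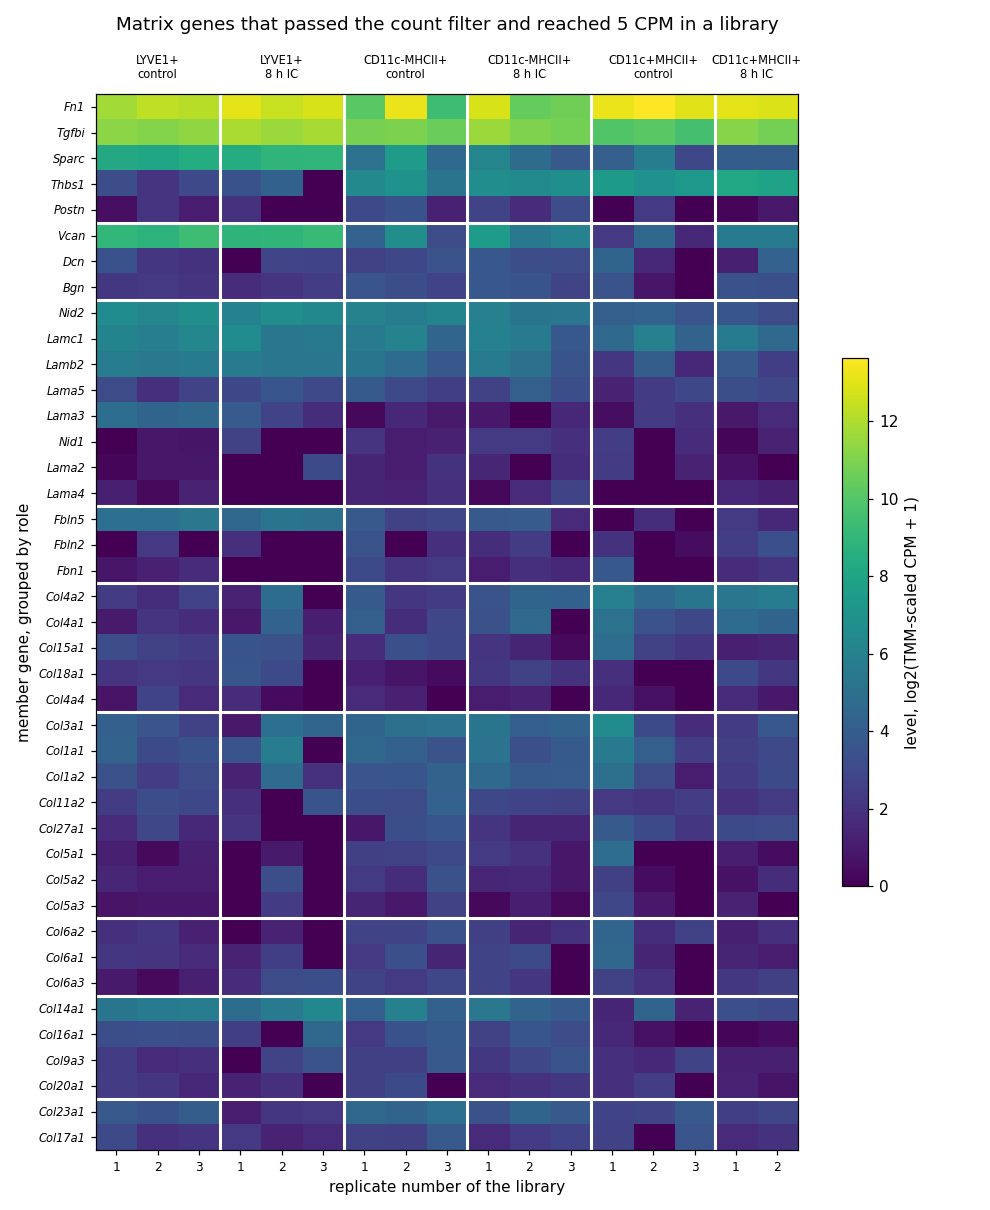
Level of the 41 matrix genes that passed the count filter and reached 5 CPM in at least 1 library, in each of the 17 libraries, as log2(TMM-scaled CPM + 1), with genes grouped by role from top to bottom and libraries by group from left to right. Fn1 and Tgfbi are bright throughout, Sparc and Vcan are bright in the 6 LYVE1+ libraries, and most collagens stay dark.

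Fn1 encodes fibronectin, the glycoprotein that ties integrins to collagen. It stood at 3440.1, 5166 and 4646 CPM in LYVE1+ controls, at 1137, 9652 and 673 CPM in CD11c-MHCII+ controls and at 9534, 12707 and 8274 CPM in CD11c+MHCII+ controls. After IC it stood at 8639, 5675 and 7133 (LYVE1+), 7304, 1381 and 1634 (CD11c-MHCII+) and 8585 and 7611 (CD11c+MHCII+) CPM in the same subsets. Every CD11c+MHCII+ control library was above every LYVE1+ control library, and CD11c-MHCII+ libraries split: control library 2 and IC library 1 were at the level of the other subsets, and the 4 others were far below it. Fn1 was called in 0 of the 12 contrasts by edgeR, and the log2 difference between CD11c+MHCII+ and CD11c-MHCII+ controls was 1.41 ± 0.89 (SE; adjusted p = 0.418, edgeR quasi-likelihood test). The difference between LYVE1+ and CD11c+MHCII+ controls was -1.20 ± 0.88 (adjusted p = 0.456, edgeR), and -1.26 (adjusted p = 0.00204, edgeR) when only these groups were fitted. Without the library with the most Vsig4 of each MHCII+ group of 3, a choice made after the values were seen that removes libraries by a gene high in LYVE1+ macrophages, the control differences were 3.31 ± 0.25 (CD11c+MHCII+ minus CD11c-MHCII+), 2.25 ± 0.23 (LYVE1+ minus CD11c-MHCII+) and -1.06 ± 0.21 (LYVE1+ minus CD11c+MHCII+). That removal took out the CD11c-MHCII+ control library with the most Fn1, so nothing is read from the wider differences from this subset. The Fn1 exons overlap 292 bases of Apol7d on the opposite strand, and whether the authors' counting used strand is not stated.

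Tgfbi encodes a secreted adhesion protein that binds collagen and integrins. Control levels were 2419, 2183 and 2691 CPM in LYVE1+, 1805, 1987 and 1452 CPM in CD11c-MHCII+ and 983, 1132 and 795 CPM in CD11c+MHCII+ libraries. All CD11c+MHCII+ control libraries lay below all other control libraries, with log2 differences of 1.33 ± 0.19 (LYVE1+ minus CD11c+MHCII+, adjusted p = 2.45e-05) and -0.85 ± 0.19 (CD11c+MHCII+ minus CD11c-MHCII+, adjusted p = 0.0047, edgeR for both), and both calls held under all 26 alternatives. After IC the levels were 3798, 3063 and 3672 (LYVE1+), 3064, 2079.8 and 1788 (CD11c-MHCII+) and 2303 and 1759 (CD11c+MHCII+) CPM. Tgfbi rose in CD11c+MHCII+ macrophages by 1.07 ± 0.21 (adjusted p = 0.027, edgeR), where both IC libraries lay above the 3 controls. This call was lost without CD11c+MHCII+ IC library 1 (adjusted p = 0.903), control library 1 (0.109) or control library 3 (0.206), or without LYVE1+ control library 1 (0.0523), and when only the groups compared were fitted (0.256) or surrogate variables were added (0.0944, edgeR). The log2 difference was 0.53 ± 0.19 in LYVE1+ (adjusted p = 0.19, groups not overlapping) and 0.40 ± 0.19 in CD11c-MHCII+ macrophages (adjusted p = 0.474, edgeR), and the 3 responses were not shown to differ (adjusted p = 0.978, 0.665 and 0.99999 for the differences of responses, edgeR). After IC Tgfbi remained higher in LYVE1+ than in CD11c+MHCII+ macrophages, by 0.79 ± 0.21 (adjusted p = 0.017, edgeR, 0.278 without CD11c+MHCII+ IC library 2).

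Thbs1 (chr2:118111876-118127133, plus strand) encodes thrombospondin-1, a matricellular protein that activates TGF-beta and restrains vessel growth. It was a gene of the MHCII+ subsets, with 8.35, 3.24 and 7.12 CPM in LYVE1+, 82.96, 122 and 37.1 CPM in CD11c-MHCII+ and 172, 117 and 155 CPM in CD11c+MHCII+ controls, and 9.65, 17.6 and 0 (LYVE1+), 101, 91.1 and 108 (CD11c-MHCII+) and 285 and 226 (CD11c+MHCII+) CPM after IC. No LYVE1+ library reached any MHCII+ library. LYVE1+ macrophages were lower than CD11c+MHCII+ ones, with log2 differences of -4.52 ± 0.73 in controls (adjusted p = 0.000959) and -4.76 ± 0.77 after IC (adjusted p = 0.00151, edgeR), under all 26 alternatives. Against CD11c-MHCII+ macrophages the log2 differences were -3.65 ± 0.71 (adjusted p = 0.0233) and -3.41 ± 0.71 (adjusted p = 0.0153, edgeR). The control call against CD11c-MHCII+ was lost without any 1 of the 3 LYVE1+ control libraries (adjusted p between 0.102 and 0.118), without CD11c-MHCII+ control library 1 (0.0649) and without CD11c+MHCII+ IC library 1 or 2 (0.0528 and 0.0519), and with a block within treatment (0.0764, edgeR). The IC call was lost when only the groups compared were fitted (0.0558, edgeR) and with voom (0.0501). Both CD11c+MHCII+ IC libraries lay above the 3 controls, with a log2 difference of 0.79 ± 0.67 that did not pass (adjusted p = 1, edgeR). Thbs1 exons overlap 208 bases of the opposite-strand Gm29233.

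Sparc encodes a calcium-binding glycoprotein that binds collagen. LYVE1+ libraries held 302, 267 and 350.0 CPM in controls and 344, 481 and 499 CPM after IC. CD11c-MHCII+ libraries held 32.6, 182 and 24.4 and 74.1, 26.99 and 13.2 CPM, and CD11c+MHCII+ libraries 16.6, 51.1 and 6.81 and 15.3 and 15.4 CPM, in controls and after IC respectively. Every LYVE1+ library was above every MHCII+ library, and the highest of the MHCII+ values belonged to the 3 libraries left out for Fn1 above. Sparc was higher in LYVE1+ than in CD11c+MHCII+ macrophages by 3.58 ± 0.91 in controls (adjusted p = 0.02) and by 4.84 ± 1.15 after IC (adjusted p = 0.0191), and higher than in CD11c-MHCII+ macrophages by 3.53 ± 0.90 after IC (adjusted p = 0.0452, edgeR). The control difference from CD11c-MHCII+ macrophages was 1.93 ± 0.84 (adjusted p = 0.451, edgeR), and voom called it in all libraries (adjusted p = 0.0152). Without those 3 libraries it was 3.38 ± 0.31. Taking out the highest MHCII+ Sparc values widens this difference by itself, so nothing is read from that value. The control call against CD11c+MHCII+ was lost without LYVE1+ control library 3 or CD11c+MHCII+ control library 1 or 3 (adjusted p between 0.0535 and 0.0792), the IC call against CD11c+MHCII+ without IC library 1 or 2 of that group (0.148 and 0.185), and the IC call against CD11c-MHCII+ without any 1 of 11 libraries, which were all 6 of LYVE1+, CD11c-MHCII+ IC libraries 2 and 3, CD11c+MHCII+ control library 1 and both CD11c+MHCII+ IC libraries (0.0551 to 0.157, edgeR). Postn, which encodes periostin, a fibroblast matricellular protein, lay between 0 and 9.72 CPM and was called in 0 contrasts by edgeR, while voom called it lower in CD11c+MHCII+ than in CD11c-MHCII+ macrophages in controls (adjusted p = 0.0435) and after IC (0.0444).

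**Figure D2:**
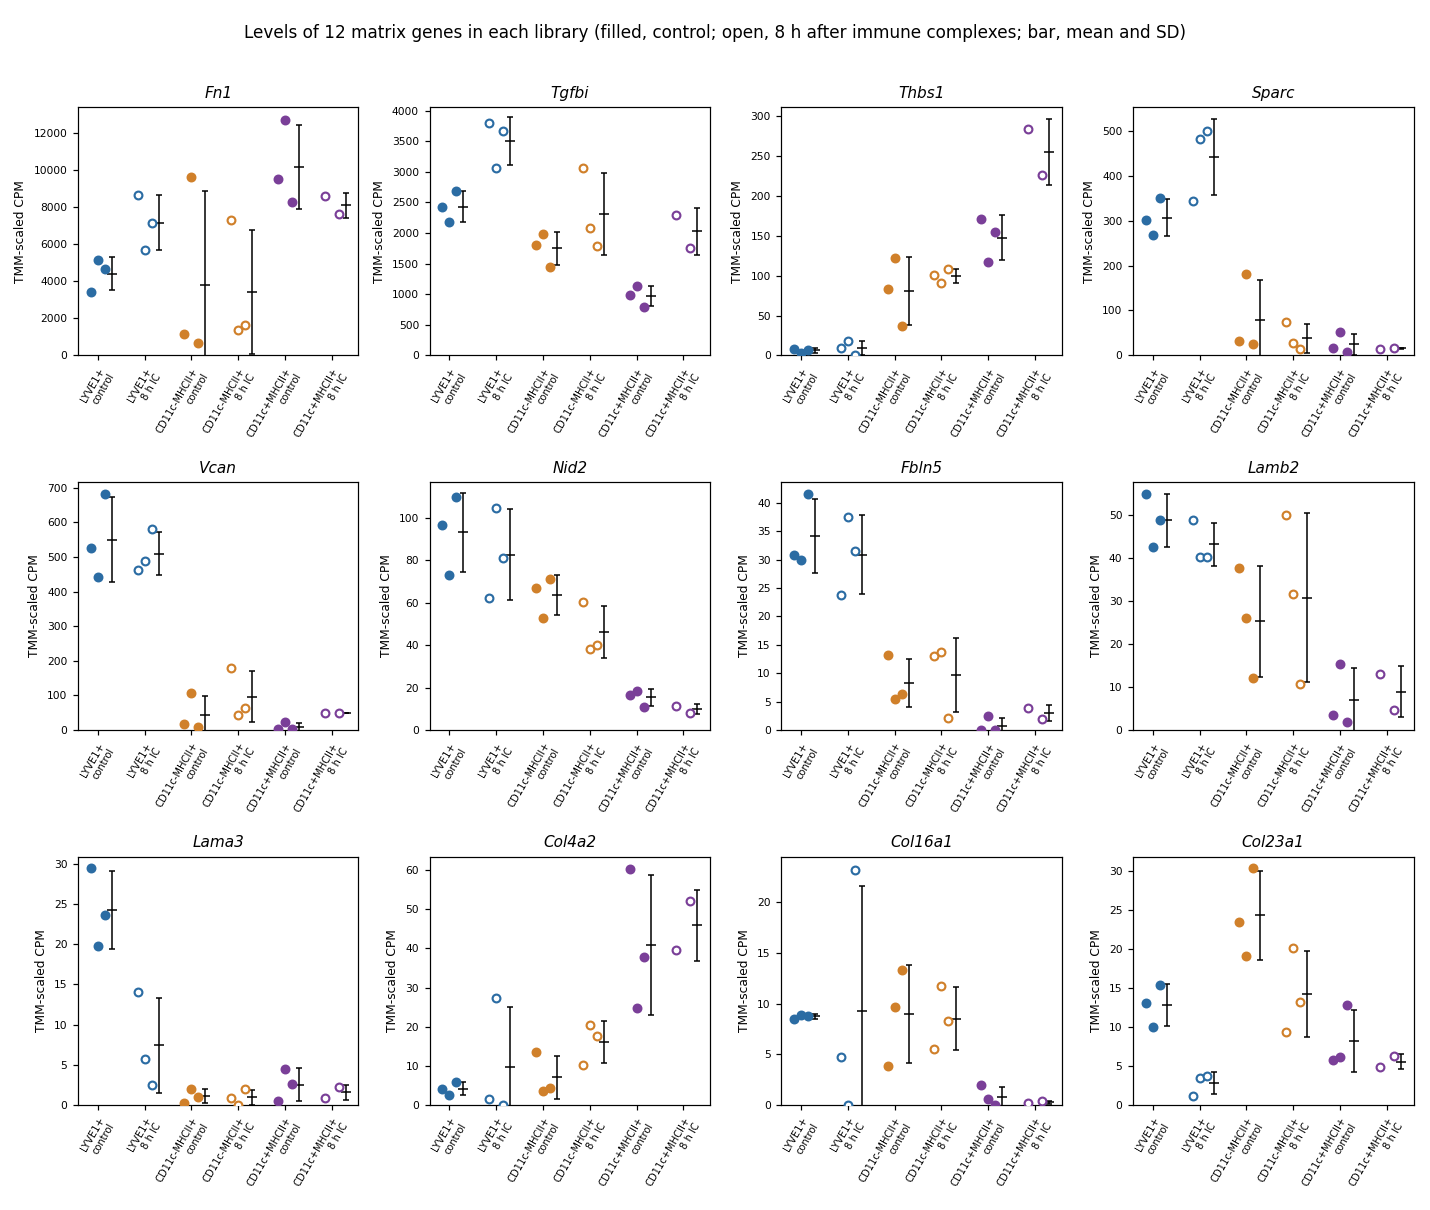
Levels of 12 matrix genes in each library, in TMM-scaled CPM on linear axes that start at 0, with filled points for controls, open points for 8 h after IC, and the mean with its SD to the right of each group (3 libraries, or 2 for CD11c+MHCII+ after IC; SD bars end at 0). Thbs1 and Col4a2 are highest in CD11c+MHCII+ macrophages, and Sparc, Vcan, Nid2, Fbln5 and Lamb2 have their highest group means in LYVE1+ macrophages.

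Vcan encodes versican, a large chondroitin sulphate proteoglycan that binds hyaluronan, the main polymer of joint fluid. It had the largest log2 difference of any called member: 527, 441 and 682 CPM in LYVE1+ controls, 18.8, 107 and 8.02 CPM in CD11c-MHCII+ controls and 3.83, 22.5 and 1.89 CPM in CD11c+MHCII+ controls. LYVE1+ controls were 5.77 ± 1.10 above CD11c+MHCII+ controls (log2, adjusted p = 0.00357, edgeR), under all 26 alternatives, and 3.59 ± 0.97 above CD11c-MHCII+ controls, which did not pass (adjusted p = 0.123, edgeR) although no libraries overlapped. DESeq2 and voom called that difference (adjusted p = 0.00334 and 0.00328). After IC the levels were 461, 488 and 579.9 (LYVE1+), 181, 43.9 and 64.1 (CD11c-MHCII+) and 49.7 and 49.1 (CD11c+MHCII+) CPM. Both CD11c+MHCII+ IC libraries lay above the 3 controls, with a log2 difference of 2.30 ± 1.04 and an adjusted p of 0.958 (edgeR). Control library 2 lay well above the other 2 controls. After IC LYVE1+ macrophages were 3.37 ± 1.13 above CD11c+MHCII+ (adjusted p = 0.0809) and 2.40 ± 0.92 above CD11c-MHCII+ macrophages (adjusted p = 0.162, edgeR), again without overlap and without a call, where DESeq2 called the former (0.00575) and voom called both (0.00208 and 0.0475). The IC responses of Vcan were not shown to differ between LYVE1+ and CD11c+MHCII+ (adjusted p = 0.722) or CD11c-MHCII+ macrophages (adjusted p = 0.911, edgeR).

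The small proteoglycans, which fibroblasts and chondrocytes make in bulk, were low. Dcn (decorin, which binds collagen fibrils) stood at 9.76, 3.51 and 2.93 CPM in LYVE1+, 5.12, 6.89 and 10.03 in CD11c-MHCII+ and 20.2, 1.86 and 0 in CD11c+MHCII+ controls, and at 0, 6.29 and 5.81 (LYVE1+), 12.2, 8.24 and 7.71 (CD11c-MHCII+) and 1.32 and 18.9 (CD11c+MHCII+) CPM after IC. Its highest values came from CD11c+MHCII+ control library 1 and IC library 2. The groups compared overlapped, except that after IC all LYVE1+ libraries lay below all CD11c-MHCII+ libraries. Bgn (biglycan) ran from 0 to 12.2 CPM, and Lum (lumican) exceeded 2 CPM only in CD11c+MHCII+ control library 1, at 8.08 CPM. Neither Dcn nor Bgn was called by edgeR in any contrast, and Lum did not pass the filter. Without CD11c+MHCII+ control library 1, Bgn was called lower in CD11c+MHCII+ than in CD11c-MHCII+ controls (-4.18, adjusted p = 0.0133, edgeR).

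Among basement membrane glycoproteins, the 12 laminin chains and nidogens, 10 passed the filter. Nid2 (chr14:19751265-19811787, plus strand), which encodes nidogen-2, the linker between laminin and type IV collagen sheets, had the smallest adjusted p of any member. Control levels were 96.5, 73.2 and 109.8 CPM in LYVE1+, 66.97, 53.02 and 71.2 in CD11c-MHCII+ and 16.6, 18.6 and 10.97 in CD11c+MHCII+ libraries, and 62.02, 105 and 80.9 (LYVE1+), 60.3, 38.1 and 39.9 (CD11c-MHCII+) and 11.5 and 8.06 (CD11c+MHCII+) CPM after IC. No CD11c+MHCII+ library reached any library of the other subsets. LYVE1+ macrophages exceeded CD11c+MHCII+ ones by 2.58 ± 0.29 (adjusted p = 7.92e-07) and, after IC, by 3.07 ± 0.35 (adjusted p = 1.94e-06), and CD11c+MHCII+ macrophages were below CD11c-MHCII+ ones, with log2 differences of -2.03 ± 0.29 in controls (adjusted p = 4.61e-05) and -2.23 ± 0.34 after IC (adjusted p = 0.000246, edgeR), all under each of 26 alternatives. Nid2 shares 437 bases of exon, 8.45% of its length, with Rtraf on the opposite strand. Its relative Nid1 stayed between 0 and 5.27 CPM and was not called.

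Lamb2 and Lamc1 encode beta and gamma chains of laminins found in vessel walls. Lamb2 held 54.8, 42.4 and 48.8 CPM in LYVE1+, 37.8, 25.98 and 12.04 in CD11c-MHCII+ and 3.4, 15.4 and 1.89 in CD11c+MHCII+ controls. The LYVE1+ controls were above all CD11c+MHCII+ controls, by 2.75 ± 0.66 (adjusted p = 0.00764, edgeR), under all 26 alternatives. After IC Lamb2 held 48.9, 40.3 and 40.2 (LYVE1+), 49.9, 31.5 and 10.7 (CD11c-MHCII+) and 13.1 and 4.76 (CD11c+MHCII+) CPM, where the same difference was 2.26 ± 0.74 and did not pass (adjusted p = 0.059, edgeR), whereas DESeq2 (0.00359), voom (0.00448) and both replicate blocks (0.0145 and 0.0126) called it. Lamc1 lay between 12.4 and 99.2 CPM over all libraries with overlapping groups and was not called by edgeR. Lama3 encodes the alpha chain of laminin-332, best known from epithelium. It stood at 29.5, 19.7 and 23.6 CPM in LYVE1+ controls against 0.213, 1.94 and 1.003 CPM and 0.425, 4.46 and 2.65 CPM in the MHCII+ controls, higher by 4.46 ± 1.01 (adjusted p = 0.02) and 3.25 ± 0.94 (adjusted p = 0.0185, edgeR). The first call was lost without any 1 LYVE1+ control library or CD11c-MHCII+ control library 1 or 3 (adjusted p between 0.0581 and 0.124), and the second without control library 1 or 3 of either group (0.0545 to 0.0847, edgeR). After IC the LYVE1+ libraries held 14.04, 5.67 and 2.49 CPM, all below the controls, with a log2 difference of -1.70 ± 0.87 that did not pass (adjusted p = 0.392, edgeR).

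Fbln5 (chr12:101746565-101819055, minus strand), which encodes fibulin-5, a protein needed to assemble elastic fibres, was the 1 fibulin with a clear subset pattern. It held 30.9, 30 and 41.6 CPM in LYVE1+, 13.2, 5.48 and 6.35 in CD11c-MHCII+ and 0, 2.41 and 0 in CD11c+MHCII+ controls, and 23.7, 37.5 and 31.5 (LYVE1+), 13.1, 13.8 and 2.2 (CD11c-MHCII+) and 3.97 and 2.02 (CD11c+MHCII+) CPM after IC. All LYVE1+ libraries were above all MHCII+ libraries. LYVE1+ exceeded CD11c+MHCII+ macrophages by 5.15 ± 0.85 in controls (adjusted p = 0.000156, all 26 alternatives) and 3.34 ± 0.87 after IC (adjusted p = 0.0138), and CD11c+MHCII+ controls were below CD11c-MHCII+ controls, with a log2 difference of -3.12 ± 0.83 (adjusted p = 0.0193, edgeR). The IC call was lost without CD11c+MHCII+ IC library 1 or 2, which leaves 1 library in that group (log2 differences of 3.91 and 2.96). The last call was lost without CD11c-MHCII+ control library 1 or CD11c+MHCII+ control library 1 or 3 (adjusted p = 0.0688 to 0.101, edgeR). It was also lost when only the groups compared were fitted (0.145, edgeR). The 5 other fibulins and fibrillins stayed at or below 12.3 CPM in every library, with Fbn1 highest in CD11c+MHCII+ control library 1, and were not called by edgeR. DESeq2 called Fbn1 lower in LYVE1+ than in CD11c+MHCII+ macrophages after IC (adjusted p = 0.0309), and without CD11c+MHCII+ control library 1 edgeR called it lower in CD11c+MHCII+ than in CD11c-MHCII+ controls (0.0307).

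Type IV collagen leaned the other way. Col4a2 held 4.09, 2.43 and 5.72 CPM in LYVE1+, 13.4, 3.53 and 4.35 in CD11c-MHCII+ and 60.2, 24.7 and 37.8 in CD11c+MHCII+ controls, and 1.46, 27.4 and 0 (LYVE1+), 10.2, 20.4 and 17.6 (CD11c-MHCII+) and 39.5 and 52.2 (CD11c+MHCII+) CPM after IC. The LYVE1+ controls were below all CD11c+MHCII+ controls, with a log2 difference of -3.29 ± 1.03 (adjusted p = 0.0466, edgeR), a call lost under 13 of 26 alternatives (adjusted p between 0.0511 and 0.151), among them the removal of any 1 LYVE1+ control library, CD11c-MHCII+ control library 3, any CD11c-MHCII+ IC library, CD11c+MHCII+ control library 1 or 3, or either CD11c+MHCII+ IC library. Its neighbour Col4a1 held 0.945, 3.24 and 2.37 (LYVE1+), 16.4, 2.47 and 6.35 (CD11c-MHCII+) and 34.7, 10.2 and 6.81 (CD11c+MHCII+) CPM in controls, without a call (-3.01 ± 1.35, adjusted p = 0.173, edgeR). LYVE1+ IC library 2 stood out for both chains, at 18.6 and 27.4 CPM against at most 1.46 CPM in the other libraries of its group. The same library held 17.3 CPM of the endothelial cadherin gene Cdh5 and 8.81 of Plvap, the gene of the capillary diaphragm protein, the highest Plvap value of all libraries. Of the other endothelial markers, Kdr, Emcn, Tie1, Tek and Cldn5 reached at most 0.944 CPM in LYVE1+ libraries. Egfl7, Esam and Vwf reached 2.16, 1.57 and 8.79 CPM there. Cdh5 was highest, at 19.8 CPM, in a CD11c-MHCII+ library. CD11c+MHCII+ libraries held 0 to 5.86 CPM of Cdh5, 0 to 1.70 of Plvap, 0 to 12.5 of Kdr and 11.3 to 48.7 of Vwf. What endothelial RNA contributes to Col4a1 and Col4a2 was not tested. Each of the 6 other basement membrane collagens was at or below 28.3 CPM and none was called by edgeR in all libraries. With surrogate variables Col15a1 was called higher in LYVE1+ than in both MHCII+ subsets after IC (adjusted p = 0.0466 and 0.0455), and without CD11c+MHCII+ control library 1 Col18a1 was called higher in LYVE1+ than in CD11c+MHCII+ controls (0.0299, edgeR).

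Fibrillar and microfibrillar collagens, the products of fibroblasts, were low in most libraries. Col1a1 stood at 19.1, 7.3 and 9.63 CPM in LYVE1+, 22.2, 17.3 and 10.4 in CD11c-MHCII+ and 47.01, 16.3 and 4.54 in CD11c+MHCII+ controls, and Col3a1 at 17.3, 11.1 and 5.44 (LYVE1+), 19.8, 31.99 and 36.1 (CD11c-MHCII+) and 95.9, 7.24 and 2.27 (CD11c+MHCII+) CPM. The control groups overlapped for Col1a1. For Col3a1 every LYVE1+ control library lay below every CD11c-MHCII+ control library, and the CD11c+MHCII+ controls overlapped both. CD11c+MHCII+ control library 1 was the highest control library for both genes. After IC Col1a1 stood at 10.5, 53.8 and 0 (LYVE1+), 35.03, 9.06 and 13.8 (CD11c-MHCII+) and 4.99 and 7.15 (CD11c+MHCII+) CPM, with LYVE1+ IC library 2 above all other libraries. None of the 11 fibrillar and microfibrillar chains that passed the filter, of 15 in the table, was called in any contrast by edgeR in all libraries. Other settings called 5 of them in 1 or more contrasts: Col6a2 and Col27a1 with voom and Col11a2, Col6a2, Col6a3 and Col27a1 with surrogate variables, and, with edgeR, Col5a1 without CD11c+MHCII+ control library 1 (lower in CD11c+MHCII+ than in CD11c-MHCII+ controls, adjusted p = 0.0387), Col6a2 without LYVE1+ IC library 2 (0.0393) and Col27a1 without LYVE1+ IC library 1 (0.0105). Of 24 collagens, small proteoglycans, fibrillins and fibulins with at least 20 counts in CD11c+MHCII+ controls, 18 were highest in control library 1, compared with 2 in library 2 and 4 in library 3. In the other groups of 3 the highest values were more spread, at 11, 10 and 5 of 26 in LYVE1+ controls, 3, 9 and 7 of 19 after IC, 7, 6 and 14 of 27 in CD11c-MHCII+ controls and 12, 13 and 4 of 29 after IC (libraries 1, 2 and 3).

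Among the collagens that decorate fibrils or cross the membrane, Col14a1, Col16a1 and Col23a1 reached 20 CPM in at least 1 library. Col16a1 held 8.5, 8.92 and 8.79 CPM in LYVE1+, 3.84, 9.72 and 13.4 in CD11c-MHCII+ and 1.91, 0.557 and 0 in CD11c+MHCII+ controls, higher in LYVE1+ than in CD11c+MHCII+ controls by 3.26 ± 1.10 (adjusted p = 0.0467, edgeR), which was lost under 16 of 26 alternatives (0.0541 to 0.154), 13 of them the removal of 1 library (every CD11c-MHCII+ library, every LYVE1+ control library, both CD11c+MHCII+ IC libraries and CD11c+MHCII+ control libraries 2 and 3). After IC the LYVE1+ libraries spread over 4.68, 0 and 23.2 CPM, and both CD11c+MHCII+ libraries were at 3 counts or fewer, so that the mean was at least 18.8-fold higher (adjusted p = 0.0259, edgeR). The groups overlapped, and the call was lost under 8 alternatives, among them the removal of LYVE1+ IC library 3 (0.149) or of either CD11c+MHCII+ IC library (0.201 and 0.161, edgeR). Col23a1, a transmembrane collagen gene, held 13.1, 10 and 15.3 CPM in LYVE1+ controls and 1.17, 3.46 and 3.73 CPM after IC, with no overlap and a log2 difference of -2.22 ± 0.56 just outside the threshold (adjusted p = 0.0536, edgeR, and 0.0093 by DESeq2). Voom called 0 members in that contrast. After IC Col23a1 was lower in LYVE1+ than in CD11c-MHCII+ macrophages, which held 9.31, 20.2 and 13.2 CPM, with a log2 difference of -2.37 ± 0.56 (adjusted p = 0.0119, edgeR). This call was lost without LYVE1+ IC library 1 (0.0516) or CD11c-MHCII+ IC library 2 (0.0742), and when only the groups compared were fitted (0.161, edgeR). Voom did not make it (0.129). Col14a1 held 38.7, 47.3 and 54.7 CPM in LYVE1+, 15.8, 59.4 and 17.4 in CD11c-MHCII+ and 1.7, 20.1 and 1.51 in CD11c+MHCII+ controls, highest in each MHCII+ control group in library 2, and was not called by edgeR (LYVE1+ minus CD11c+MHCII+ 2.52 ± 0.85, adjusted p = 0.0636, edgeR). DESeq2 and voom called that difference (0.0171 and 0.00784), and without the 3 libraries left out for Fn1 it was 4.78 ± 0.56. Those include the CD11c+MHCII+ control library with the most Col14a1, so nothing is read from the wider difference.

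Among the members, as among all genes, calls between subsets outnumbered calls for IC. Of 48 members tested, 10 (20.8%) differed between LYVE1+ and CD11c+MHCII+ controls, 8 higher in LYVE1+ and 2 lower. Of all 15272 genes 15.2% were called there (7.83% higher and 7.4% lower). After IC 6 (12.5%) differed between these subsets (5 higher, 1 lower), beside 11.9% of all genes (3.52% and 8.42%). Between CD11c+MHCII+ and CD11c-MHCII+ macrophages 3 members (6.25%) differed in controls and 1 (2.08%) after IC, all lower in CD11c+MHCII+. The shares of all genes were 8.66% and 4.03%. Between LYVE1+ and CD11c-MHCII+ macrophages 2 (4.17%) differed in controls (1 higher, 1 lower) and 3 (6.25%) after IC (1 higher, 2 lower). There the shares of all genes were 1.56% and 5.54%. Contrasts that use the same libraries are not independent of each other. The median log2 difference of the 48 members was -0.02 between LYVE1+ and CD11c+MHCII+ controls and 0.57 after IC, against 0.05 and -0.12 over all genes tested.

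**Figure D3:**
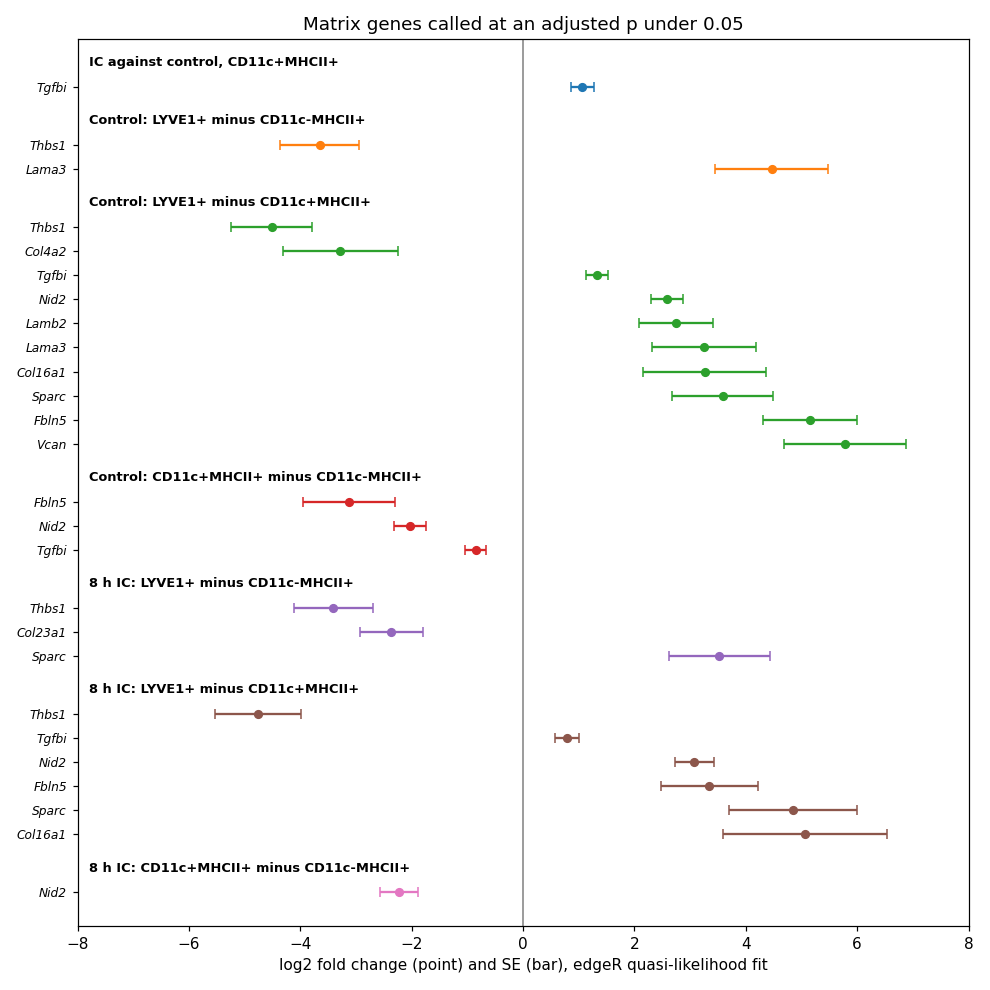
Log2 fold change (point) and its SE (bar) of each matrix gene called at an adjusted p under 0.05, grouped by contrast, from the edgeR fit to all 17 libraries. Calls between subsets outnumber the single call for IC, as they do over all genes tested. The IC call is Tgfbi in CD11c+MHCII+ macrophages at 1.07 ± 0.21. Thbs1 is lower in LYVE1+ macrophages in 4 of 4 comparisons with MHCII+ subsets.

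IC changed 1 member in CD11c+MHCII+ macrophages, Tgfbi, where 0.216% of all genes were called, and 0 members in LYVE1+ and CD11c-MHCII+ macrophages, where 0.963% and 0.701% were. At an unadjusted p under 0.05 the edgeR counts were 4 members in CD11c+MHCII+, 6 in LYVE1+ and 1 in CD11c-MHCII+ macrophages. DESeq2 called 1, 1 and 0, and limma's voom test with quality weights called 1, 0 and 0. Over the 48 members the median log2 change was -0.11 in LYVE1+, -0.21 in CD11c-MHCII+ and -0.31 in CD11c+MHCII+ macrophages, against -0.14, -0.03 and 0.01 over all genes tested. The IC responses of the subsets differed for 0 members in each of the 3 pairs by edgeR, DESeq2 and voom, with 0.0262%, 0.0327% and 0.0% of all genes called and 3, 4 and 2 members at an unadjusted p under 0.05 (LYVE1+ against CD11c-MHCII+, LYVE1+ against CD11c+MHCII+, and CD11c+MHCII+ against CD11c-MHCII+, edgeR).

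Genes whose products modify and fold collagen ranged from high to absent. Of 18 listed, 15 passed the filter. P4hb, which encodes a subunit of prolyl 4-hydroxylase, had medians of 714, 794 and 754 CPM in LYVE1+, CD11c-MHCII+ and CD11c+MHCII+ libraries, while Plod2, a lysyl hydroxylase gene, was at 0 in 5 of 6 LYVE1+ libraries. In controls, LYVE1+ macrophages were higher than CD11c+MHCII+ ones in Plod1 (2.18 ± 0.30, adjusted p = 3.22e-05) and Plod3 (0.88 ± 0.22, adjusted p = 0.00536), which encode lysyl hydroxylases, and lower in Colgalt1 (-0.79 ± 0.20, adjusted p = 0.00825, edgeR), which encodes a collagen galactosyltransferase. After IC Plod1 and Colgalt1 were called again in the same directions, CD11c+MHCII+ differed from CD11c-MHCII+ macrophages in Plod1 (lower) and Colgalt1 (higher) under both treatments, and Pcolce was lower in LYVE1+ than in CD11c-MHCII+ controls (-3.43 ± 0.83, adjusted p = 0.0415, edgeR). For IC, 0 of the 15 were called in any subset, where 0.963% (LYVE1+), 0.701% (CD11c-MHCII+) and 0.216% (CD11c+MHCII+) of all genes were. Serpinh1, which encodes the collagen chaperone HSP47, held 109, 59.2 and 95.7 CPM in LYVE1+, 11.9, 74.9 and 4.35 in CD11c-MHCII+ and 2.98, 70.03 and 0 in CD11c+MHCII+ controls. Control library 2 was far above libraries 1 and 3 in both MHCII+ groups, and Serpinh1 was not called by edgeR.

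Of 24 receptors for matrix, 23 passed the filter. Sdc4, which encodes syndecan-4, a fibronectin co-receptor, rose after IC in CD11c-MHCII+ macrophages from 178, 189.8 and 145 to 533, 628 and 668 CPM (1.83 ± 0.22, adjusted p = 0.000125) and in CD11c+MHCII+ macrophages from 147, 196 and 109.7 to 356 and 354 CPM (1.23 ± 0.23, adjusted p = 0.0244, edgeR). LYVE1+ libraries stayed between 64.5 and 107 CPM, and their response differed from that of CD11c-MHCII+ macrophages (-1.78 ± 0.31, adjusted p = 0.0291, edgeR). Between LYVE1+ and CD11c+MHCII+ controls 4 receptors were higher (Dag1, Itga6, Mrc1 and Stab1) and 7 lower (Cd44, Ddr1, Itga1, Itgb3, Sdc1, Sdc3 and Sdc4), and after IC 1 was higher (Stab1) and 9 lower. Of all genes tested, 7.83% were higher and 7.4% lower in that control contrast, and 3.52% and 8.42% after IC. Itga1 and Ddr1, which encode receptors for collagen, were nearly absent from LYVE1+ libraries, at no more than 1.12 and 0.787 CPM, and stood at 38.9, 24.1 and 14.4 and 58.7, 18.02 and 68.8 CPM in CD11c+MHCII+ controls. Stab1 and Mrc1, scavenger receptors that take up SPARC and collagen fragments respectively, were lower in CD11c+MHCII+ than in CD11c-MHCII+ controls (-2.92 ± 0.44, adjusted p = 0.00105, and -1.44 ± 0.21, adjusted p = 9.02e-05, edgeR).

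Markers of other joint cells were read in the same libraries, because matrix transcripts of a sorted population can come from its own cells or from RNA of fibroblasts, endothelium or mural cells sorted or carried along. The sum of 10 fibroblast markers ran from 53.1 to 77.8 CPM in LYVE1+ controls, 84.0 to 104 after IC, 29.9 to 108 and 41.0 to 88.5 in CD11c-MHCII+, and 17.02 to 133 and 53.3 to 80.9 in CD11c+MHCII+ controls and IC libraries. Pdpn, which some macrophages also express, was the larger part of it in every LYVE1+ library, and without Pdpn the sum ran from 7.79 to 50.6 CPM, with the highest value in CD11c+MHCII+ control library 1. Pdgfra was at 0 in 6 of 17 libraries, Thy1 in 8, Mfap5 in 8 and Cdh11 in 12, and their medians were 0.698, 0.222, 0.294 and 0 CPM. Of the other fibroblast markers, Pi16 was at 0 in 4 libraries, Dpt, Clec3b and Prrx1 in 2 each, and Prg4 and Pdpn in 0. Their medians were 2.66, 2.36, 1.12, 2.05, 7.62 and 40.9 CPM in that order. The macrophage marker sum was 8820.2 to 19787 CPM. CD11c+MHCII+ control library 1 held the most Pdgfra (7.66 CPM), Thy1 (5.53), Clec3b (11.9) and Pi16 (12.5), and also the most Col3a1, Col1a2, Col5a1, Col6a1, Col6a2, Fbn1, Dcn and Lum of all libraries. The other fibroblast markers listed peaked elsewhere. Dpt (15.4 CPM), Prrx1 (7.42), Mfap5 (2.47) and Cdh11 (2.34) were highest in CD11c-MHCII+ libraries. Prg4 (26.8) was highest in a LYVE1+ library and Pdpn (119) in CD11c+MHCII+ control library 2.

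Mural and endothelial markers moved with other libraries. The mural sum of 7 genes in the table (Rgs5 and Kcnj8 were not analysed here) ran from 3.03 to 681 CPM, and in LYVE1+ libraries it was mostly Cspg4, which lay between 369 and 669 CPM there, while Myh11, the smooth muscle myosin gene, stayed at 8.78 CPM or less. Without Cspg4 the mural sum ran from 0 to 136 CPM, with Myh11 at 87.7 CPM in CD11c+MHCII+ IC library 1 and 49.3 CPM in CD11c-MHCII+ control library 1. The endothelial sum of 10 genes ran from 4.68 to 55.5 CPM, with Emcn at 0 in 12 libraries and Tie1 and Cldn5 in 13. Plvap was at 0 in 11 libraries, Tek in 9, Kdr in 7, Egfl7 in 4, Cdh5 and Esam in 2 each, and Vwf in 0. The highest endothelial sum was that of CD11c+MHCII+ control library 2, of which 48.7 CPM was Vwf, the gene of a clotting protein. Of 7 fibroblast, 6 mural and 7 endothelial markers tested, 0 were called for IC. The shares of all genes called for IC were 0.963% in LYVE1+, 0.701% in CD11c-MHCII+ and 0.216% in CD11c+MHCII+ macrophages. So few markers at such shares do not show whether these markers changed. Between subsets after IC, LYVE1+ macrophages were lower than CD11c-MHCII+ ones in Dpt and Pi16, and against CD11c+MHCII+ ones higher in Prg4 and lower in Pi16 and Kdr. Vwf was lower in LYVE1+ than in CD11c+MHCII+ controls (-1.94 ± 0.60, adjusted p = 0.0285) and higher in CD11c+MHCII+ than in CD11c-MHCII+ macrophages after IC (2.46 ± 0.68, adjusted p = 0.037, edgeR). In bulk libraries, fewer contributing cells and less RNA per cell cannot be told apart, and the part of these cell types in the collagen, laminin and proteoglycan levels was not tested. Summed levels of the other marker lists ran from 0.756 to 31.3 CPM for 6 chondrocyte genes, 2.34 to 24.7 for skeletal muscle, 0 to 10.2 for adipocytes, 16.2 to 117 for Schwann cells, 7.24 to 234 for neutrophils, 0 to 35.9 for mast cells, 0 to 97.2 for T cells (2 genes) and 0 to 23.4 for B cells.

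Within both MHCII+ control groups and CD11c-MHCII+ IC libraries, the library with the most Vsig4 was also the one with the most Cspg4, Serpinh1, Vcan, Sparc and Col14a1. In CD11c-MHCII+ controls, library 2 held 336 CPM of Cspg4, 107 of Vcan and 182 of Sparc, against at most 28.2, 18.8 and 32.6 in libraries 1 and 3. In CD11c-MHCII+ IC libraries, library 1 held 364, 181 and 74.1, against at most 36.1, 64.1 and 26.99. In CD11c+MHCII+ controls, library 2 held 275, 22.5 and 51.1, against at most 4.68, 3.83 and 16.6. These are the 3 libraries left out where stated. Their Pdgfra was at 0.884, 1.33 and 0 CPM, the first the highest of its group and the others not, against 7.66 CPM in CD11c+MHCII+ control library 1. In CD11c+MHCII+ IC libraries both libraries held like amounts of Vcan (49.7 and 49.1 CPM) and Sparc (15.3 and 15.4 CPM), at unlike amounts of Vsig4 (99.9 and 16.7 CPM).

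**Figure D4:**
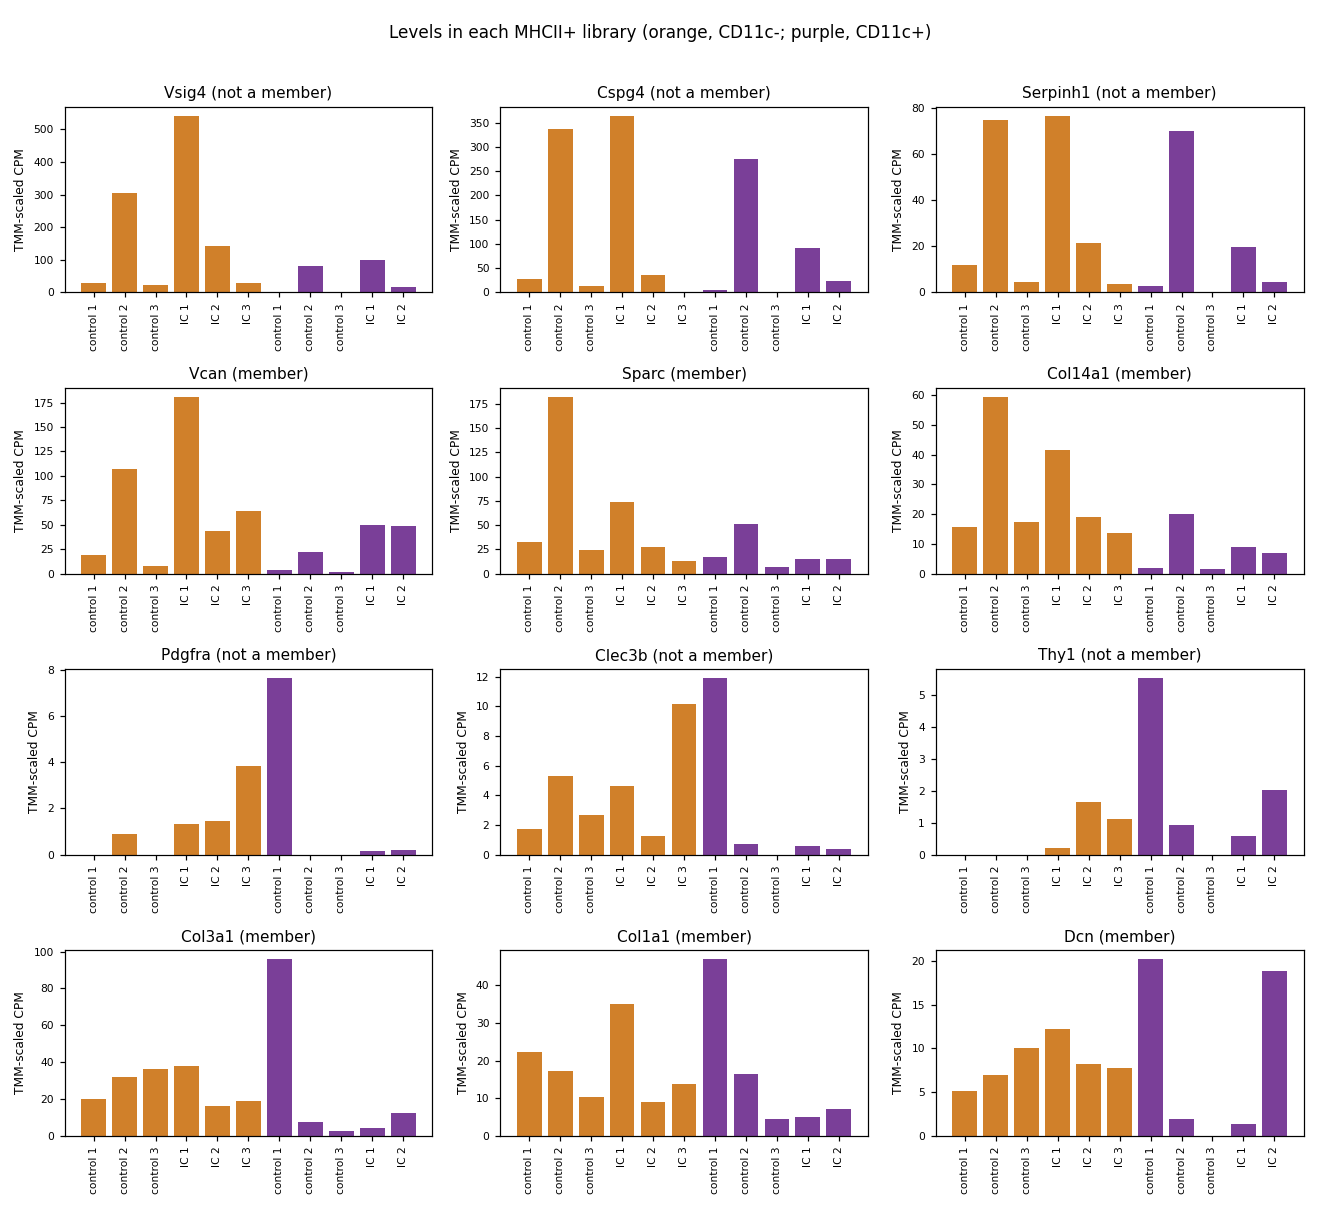
Bars give TMM-scaled CPM, on axes that start at 0, in each of the 11 MHCII+ libraries for 6 genes that are not members (Vsig4, Cspg4, Serpinh1, Pdgfra, Clec3b and Thy1) and 6 members (Vcan, Sparc, Col14a1, Col3a1, Col1a1 and Dcn), orange for CD11c- and purple for CD11c+ macrophages. Control library 2 of both subsets and CD11c-MHCII+ IC library 1 are each the highest of their own group for Vsig4, Cspg4, Serpinh1, Vcan, Sparc and Col14a1. CD11c+MHCII+ control library 2, at 81.2 CPM of Vsig4 and 22.5 of Vcan, lies below some libraries of other groups for these 2 genes. CD11c+MHCII+ control library 1 leads all 11 libraries for Pdgfra, Clec3b, Thy1, Col3a1, Col1a1 and Dcn. Pdgfra, Clec3b and Thy1 were picked from the 10 fibroblast markers, of which others peak in other libraries.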

How the data were processed

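Per the labels and the study's methods, libraries were made from 5 ng of RNA with a stranded total RNA kit, and the authors trimmed reads with Trim Galore, used HISAT2 for alignment to mm10 and featureCounts for gene counts. The deposited values are raw counts, not normalized. Tool versions, the annotation, the strand setting and the treatment of multi-mapping reads are not given in the sources used here. The combined table held 1 column that matched no sample and summed to 0, which was not used.

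The members and gene lists were chosen with earlier results of these data known. Genes were filtered with filterByExpr (minimum count 10), which left 15272 of 22859 genes, scaled by TMM and fitted with edgeR 4.0.16 (robust quasi-likelihood test, R 4.3.3) to 6 group means over all 17 libraries (11 residual degrees of freedom). The Benjamini-Hochberg adjustment ran over all genes tested, for each of 12 contrasts, and genes with an adjusted p under 0.05 were called. Levels are CPM, also per kilobase of exons of GENCODE models, in which all 67 members were found. Library totals were 2301913 to 7248939 counts, so 3 counts, taken as the floor, lie near 1 CPM. Counts cover reads, not molecules. The script was tested on simulated data. No replicate pair agreed within sampling noise (lowest chi-square per degree of freedom 6.77). Alternatives used DESeq2 1.42.0, limma 3.58.1 (voom), 5 surrogate variables from sva 3.50.0, DESeq2-type size factors, no filter, fewer groups, replicate blocks, each library left out in turn and, added after the data were seen, removal of the library with the most Vsig4 from each MHCII+ group of 3.

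Text names every called member, the 5 members with the highest mean per kilobase in each group and the 9 members chosen by name. Other members are summarised, and single ones named outside this rule (such as Col4a1, Col1a1, Col3a1 and Col14a1) were chosen after their values were seen. The values of 1 member are not reported here.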

Additional observations from a re-analysis of the deposited data

How the results depend on the processing

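Of 26 calls of a member in a contrast, 11 held under all 26 alternatives and 0 changed direction, and of 676 values 587 stayed called and 89 lost significance. With surrogate variables the members called numbered 4 for IC in LYVE1+, 0 for IC in CD11c+MHCII+, 5 between CD11c+MHCII+ and CD11c-MHCII+ controls and, after IC, 16 for LYVE1+ against CD11c-MHCII+, 17 for LYVE1+ against CD11c+MHCII+ and 3 for CD11c+MHCII+ against CD11c-MHCII+. DESeq2 called 1 for IC in LYVE1+, 7 between the MHCII+ controls and, after IC, 7, 10 and 2 in the same order of pairs. Voom called 5, 16 and 7 in the control pairs LYVE1+ against CD11c-MHCII+, LYVE1+ against CD11c+MHCII+ and CD11c+MHCII+ against CD11c-MHCII+, and 6 between the MHCII+ subsets after IC. DESeq2-type size factors gave 5 for LYVE1+ against CD11c-MHCII+ after IC. Between the MHCII+ subsets after IC, no filter gave 2 and only the groups compared gave 4, and the latter gave 0 for IC in CD11c+MHCII+. Without the library with the most Vsig4 of each MHCII+ group of 3, which removes 1 control and 0 IC libraries of CD11c+MHCII+ macrophages so that nothing is read from its IC counts, the counts were 1, 1 and 4 for IC in LYVE1+, CD11c-MHCII+ and CD11c+MHCII+, 7 and 8 in controls for CD11c-MHCII+ against LYVE1+ and CD11c+MHCII+, 9, 10 and 2 after IC, and 1 and 1 for the differences in IC response of LYVE1+ from CD11c-MHCII+ and CD11c+MHCII+. The cause of these changes was not tested. Leaving out 1 library at a time gave 0 to 1, 0 to 0 and 0 to 2 for IC in the 3 subsets, 0 to 3, 6 to 10 and 2 to 7 for the control pairs, 1 to 6, 2 to 10 and 1 to 3 for the pairs after IC, and 0 to 0 for differences in response. With 1 CD11c+MHCII+ IC library left, the lone library is assumed to vary like the other groups. Same-numbered libraries of a treatment correlated at 0.0013 to 0.286 in their deviations from group means (median 0.041). All 16 pairs were above 0, and 2 were over 0.1. Pairs of a treatment with unlike numbers had a median of -0.029, from -0.150 to 0.067. Of 34 library-and-group pairs, 25 correlated best with their own number. No label says that the numbers pair libraries, and the main fit used no pairing. With the replicate block 0, 0, 1, 2, 9, 4, 4, 6, 1, 0, 0 and 0 members were called in the 12 contrasts, in the order IC, control pairs, pairs after IC and differences in response, and with a block within treatment 1 and 5 were called for LYVE1+ against CD11c-MHCII+ and between the MHCII+ subsets in controls. Depth limits the 51 members under 20 CPM most, since 3 counts are near 1 CPM.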

Other observations

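Vcan and Vsig4 were set against each other within libraries, a ratio chosen after its values were seen and given without a test. The LYVE1+ libraries held 0.242 to 0.574 Vcan counts per Vsig4 count. CD11c-MHCII+ libraries held 0.647, 0.351 and 0.358 in controls and 0.334, 0.305 and 2.26 after IC. CD11c+MHCII+ libraries held 3.6 and 0.277 in controls 1 and 2, where control 3 had 0 Vsig4 counts, and 0.497 and 2.95 after IC. Of these 10 MHCII+ ratios, 6 lay inside the LYVE1+ range. Sparc counts per Vsig4 count were 0.218 to 0.295 in LYVE1+ libraries, and none of the MHCII+ libraries lay inside that range, with 1.125, 0.594 and 1.09 in CD11c-MHCII+ controls, 0.137, 0.187 and 0.466 after IC, 15.6 and 0.629 in CD11c+MHCII+ controls 1 and 2, and 0.153 and 0.923 after IC.

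Lama4, which encodes a laminin alpha chain of vessel walls, was at 0 in all 3 CD11c+MHCII+ control libraries and all 3 LYVE1+ IC libraries, and its IC responses in these subsets were not shown to differ (adjusted p = 0.22, edgeR). Fbn1, the gene of fibrillin-1, and Col4a5, a type IV collagen chain gene, were also at 0 in all 3 LYVE1+ IC libraries. LYVE1+ controls held only 5, 5 and 17 counts of Fbn1 and 13, 10 and 8 of Col4a5. The LYVE1+ IC libraries were shallower, at 2301913 to 3348248 counts with 26 to 39 members detected. LYVE1+ controls had 3669763 to 7248939 counts with 51 to 57 detected, so these zeros do not show a loss after IC. These genes were picked after their values were seen.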
